A study of Mus musculus with 48 samples.

Results

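Astrocytes and microglia taken from the same mouse brains 24 h after a transient stroke were compared gene by gene for their response to the stroke, which is here the log2 difference between the ipsilateral, stroke-affected hemisphere and the contralateral hemisphere of the same pool of mice. Members are all genes whose mean level reached 10 normalized counts in both cell types, which gave 12238 of the 24973 genes of the deposited table, measured in 24 of its 48 libraries. The question was which genes responded differently in the 2 cell types, which responded in opposite directions and which responded alike.

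All mice were male adult wild-type C57BL/6 animals after transient middle cerebral artery occlusion. In this operation a filament blocks and then releases a main artery of 1 side of the brain. In all groups the occlusion lasted 1 h and the reperfusion 23 h. The 4 groups were ipsilateral astrocytes, contralateral astrocytes, ipsilateral microglia and contralateral microglia, with 6 libraries each and 1 library per pool of 3 to 4 brains. The contralateral hemisphere of an operated mouse served as the control, so that no brain without an operation entered these comparisons. Microglia were sorted as CD45low/CD11b-positive cells and astrocytes as ACSA2-high cells without CD45 and without endothelial and pericyte markers. Libraries with the same number were taken to come from the same pool, in both hemispheres and both cell types.

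Astrocytes support neurons by clearing glutamate and potassium and by feeding metabolites to them, and after injury they enter a reactive state with high *Gfap* and *Lcn2*. Microglia are the resident macrophages of the brain, which survey it with purinergic receptors such as P2RY12 and lower these homeostatic genes when they become activated. Both cell types respond to ischemia within hours by immediate early transcription factors, stress proteins and cytokines.

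The sorted cells carried the markers of their labels. The summed normalized counts of 10 astrocyte markers were 147819 to 462987 in the 12 astrocyte libraries and 1591 to 6605 in the 12 microglial libraries, and those of 10 microglial markers were 235890 to 559602 in microglia and 1593 to 31699 in astrocytes. Microglial RNA in ipsilateral astrocytes, measured by those markers, was set against the mean of all 6 ipsilateral microglial libraries. It reached 2.02% to 8.02% of that mean in replicates 1 to 4 and 0.506% to 0.569% in replicates 5 and 6. Oligodendrocyte markers were also high in astrocyte libraries, with 47133 to 432741 normalized counts against 1862 to 10580 in microglia. The sum of these 6 markers exceeded that of the 10 astrocyte markers in ipsilateral astrocytes of replicates 2, 3 and 4 (432741 against 147819 in replicate 4). It did so also in contralateral astrocytes of replicate 4 (379459 against 279818) and was lower in the other astrocyte libraries. Pericyte markers summed to 1682 to 14580 in contralateral and 1243 to 6952 in ipsilateral astrocytes, and to 108 to 904 and 374 to 2240 in microglia. In astrocytes their sum was lower ipsilaterally in each pool and was highest in replicates 5 and 6. The part of oligodendrocyte or pericyte RNA in the astrocyte responses was not tested. Neutrophil markers were higher on the ipsilateral side of both cell types, at 218 to 5163 against 1 to 913 in astrocytes and at 1514 to 18195 against 94 to 1049 in microglia. Reads counted on genes were estimated at 4900000 to 17100000 per library, and ipsilateral microglia replicate 3 was the shallowest. In bulk RNA, fewer cells of a type and less RNA per cell cannot be told apart.

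The promoters of 3 genes are shown because they belong to 3 gene groups described below, namely glycolysis, immediate early genes and heat shock genes, and hold a motif known for that group. Each spans 250 bases before to 50 after a RefSeq start site in GRCm38.p6 and is written from 5′ to 3′ on the strand of its gene. Capitals mark letters that match the core of the hypoxia response element (ACGTG, either strand) in *Pgk1* at chrX:106186850-106187149 on the plus strand, the CArG box bound by serum response factor in *Egr2* at chr10:67537619-67537918 on the plus strand, and the heat shock element core (GAANNTTC, either strand) in *Hspa1b* at chr17:34959189-34959488 on the minus strand.
Pgk1: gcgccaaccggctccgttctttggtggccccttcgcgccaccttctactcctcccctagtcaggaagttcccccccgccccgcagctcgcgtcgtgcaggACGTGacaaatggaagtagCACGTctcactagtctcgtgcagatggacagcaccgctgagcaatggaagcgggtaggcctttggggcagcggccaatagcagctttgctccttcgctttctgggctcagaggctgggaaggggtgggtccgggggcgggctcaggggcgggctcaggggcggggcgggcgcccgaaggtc
Egr2: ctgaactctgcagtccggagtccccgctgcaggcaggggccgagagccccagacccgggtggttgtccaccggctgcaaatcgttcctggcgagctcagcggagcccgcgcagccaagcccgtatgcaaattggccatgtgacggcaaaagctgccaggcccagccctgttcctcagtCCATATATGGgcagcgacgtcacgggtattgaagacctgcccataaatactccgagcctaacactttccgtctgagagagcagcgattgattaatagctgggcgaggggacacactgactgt
Hspa1b: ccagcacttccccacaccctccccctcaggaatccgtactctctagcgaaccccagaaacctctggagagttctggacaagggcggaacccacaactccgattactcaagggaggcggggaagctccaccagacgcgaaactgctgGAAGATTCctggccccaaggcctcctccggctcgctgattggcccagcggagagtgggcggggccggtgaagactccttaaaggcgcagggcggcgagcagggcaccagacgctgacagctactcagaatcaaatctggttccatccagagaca
Among all 32851 listed promoters of this length, 19.6% held the hypoxia core, 1.63% a CArG box and 7.86% the heat shock core. Among the 9218 tested genes matched to a promoter, the shares were 29.7%, 1.58% and 6.99%. These letters are thus a description of the windows and not a sign of binding. The windows were picked for their motif and do not stand for their groups. Of the other glycolytic genes described below, the windows of *Tpi1* and all 3 of *Eno1* held no hypoxia core, as did 1 of 2 of *Pkm* and 1 of 3 of *Aldoa*, and of 5 listed starts of *Egr2*, 4 had a CArG box.

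A gene was called different when the astrocyte and microglial responses differed by at least 0.585 on the log2 scale, which is 1.5-fold, with a p of at most 0.05 in limma after Benjamini-Hochberg adjustment over all 12238 genes. By this rule 179 genes differed (1.46% of those tested), and 2254 had an unadjusted p under 0.05. The response was more positive in astrocytes for 112 genes (0.915%) and more positive in microglia for 67 genes (0.547%). When the 6 pools were entered as a block, so that the 2 cell types of each pool were compared with each other, 60 genes passed (0.49%), 31 and 29 in the 2 directions, and 55 of these were among the 179. Blocked p values are given below where they end a call and for the leading genes. For 429 genes (3.51%) the 6 astrocyte and 6 microglial differences did not overlap at all, and 154 of the 179 were among them. The median response over all genes was -0.03 in astrocytes and -0.16 in microglia, so that the typical difference between the cell types was 0.16 rather than 0. After each set of differences was centred on its median, 53.4% rather than 62.6% of the calls were in the direction of astrocytes.

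Most differences were a response of 1 cell type that was not called in the other. In separate fits, 181 genes rose (1.48%) and 50 fell (0.409%) in astrocytes, while 609 rose (4.98%) and 825 fell (6.74%) in microglia. Of the 112 genes more positive in astrocytes, 67 fell in microglia without a call in astrocytes, 30 rose in astrocytes without a call in microglia, and 9 were called in neither fit. In 2 of them both cell types rose, in 2 both fell, and in 2 astrocytes rose while microglia fell. Of the 67 genes more positive in microglia, 61 rose in microglia without a call in astrocytes and 6 were called in neither fit. The 6 differences of a gene had a median SD of 0.55 in astrocytes and 0.76 in microglia.

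**Figure D1:**
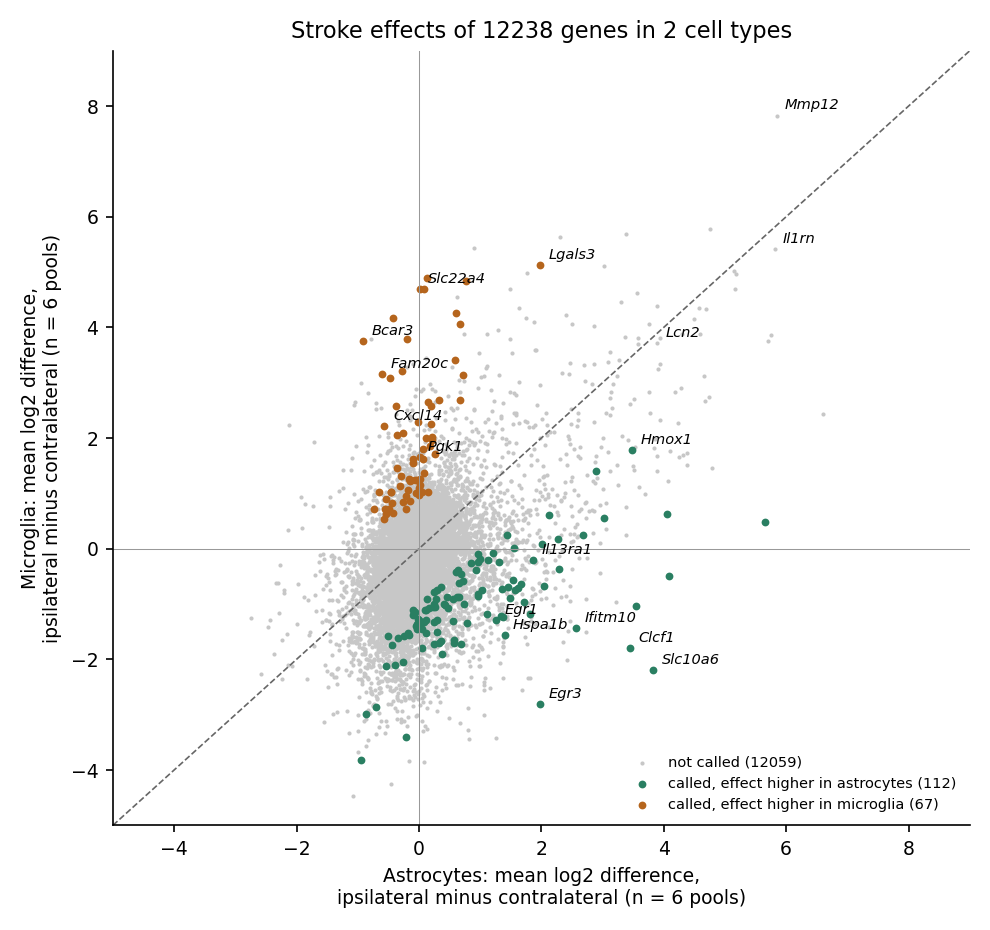
Mean log2 difference between hemispheres in astrocytes (x axis) and microglia (y axis) for 12238 genes, each a mean of 6 pools, with the dashed line marking equal responses. The 112 green genes lie below the line with a response more positive in astrocytes, the 67 brown genes lie above it, and the large shared rises such as *Mmp12* and *Il1rn* are grey.

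*Slc10a6* and *Ifitm10* were the 2 genes that rose in astrocytes and fell in microglia with a call in each separate fit, and both kept the call with the block. *Slc10a6* (ENSMUSG00000029321, chromosome 5, 103605711 to 103629403, minus strand) encodes a transporter of sulfated steroids. In astrocytes it went from 12 to 96 normalized counts contralaterally (median 58.5) to 567 to 954 ipsilaterally (median 681.5). In microglia it went from 101 to 279 (median 202) down to 5 to 106 (median 64.5). The hemispheres did not overlap in astrocytes and overlapped slightly in microglia, where 5 of 6 pools fell. Its response was 3.83 ± 0.95 in astrocytes and -2.19 ± 1.73 in microglia (log2, SD, n = 6 pools), a difference of 6.02 (SE 0.73, limma adjusted p = 0.00135). In microglia the fall was 3.03 on the log2 scale in replicates 1 to 4 (mean -3.03) and 0.5 in replicates 5 and 6 (mean -0.5), whereas the astrocyte rise was 3.84 and 3.81.

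*Ifitm10* (ENSMUSG00000045777, chromosome 7, 142326110 to 142373753, minus strand) is a member of the interferon-induced transmembrane protein family. Its level in astrocytes was 22 to 199 normalized counts contralaterally (median 34.5) and 201 to 498 ipsilaterally (median 277.5). In microglia it was 409 to 1031 contralaterally (median 608) and 140 to 309 ipsilaterally (median 221.5). Neither cell type showed overlap between hemispheres, and the ipsilateral levels of the 2 cell types lay in overlapping ranges. The responses were 2.57 ± 1.04 and -1.43 ± 0.64, a difference of 4.0 (SE 0.48, adjusted p = 0.00135, with the block 0.0201).

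*Il13ra1*, *Fcgr2b* and *Icam1* rose in astrocytes with no call in microglia, where their median level was higher in both hemispheres. *Il13ra1*, a chain of the receptor for interleukins 4 and 13, was at 72 to 449 normalized counts in contralateral astrocytes (median 249.5) and 342 to 1766 in ipsilateral astrocytes (median 801.5). In microglia it was at 2360 to 4488 (median 3232) and 1924 to 3547 (median 2775). All 6 astrocyte pools rose, by 1.18 to 2.44, and the microglial differences lay between -0.58 and 0.21. The difference of 2.07 (SE 0.24) had an adjusted p of 0.00135. *Fcgr2b*, the inhibitory receptor for IgG, rose by 2.28 ± 0.62 in astrocytes, from a median of 383.5 to 1565 normalized counts, and had a response of 0.17 ± 0.56 in microglia, with medians of 5256 and 5397 (adjusted p of the difference 0.00839). *Icam1*, an adhesion molecule for leukocytes, rose by 1.67 ± 0.95 in astrocytes and had a mean response of -0.63 ± 1.08 in microglia (adjusted p = 0.0363). These 3 genes are abundant in microglia. Set against ipsilateral microglia of the same replicates only, microglial markers in ipsilateral astrocytes were 5.62% in replicates 1 to 4 and 0.467% in replicates 5 and 6. In the same libraries, *Il13ra1* in ipsilateral astrocytes was 24.1% of its microglial level in replicates 1 to 4 and 46.5% in replicates 5 and 6, *Fcgr2b* was 20.7% and 28.6%, and *Icam1* was 24.4% and 8.58%. The part of microglial RNA in these values was not tested. The astrocyte response in replicates 5 and 6 was 2.09 for *Il13ra1*, 2.24 for *Fcgr2b* and 1.58 for *Icam1*, close to the 1.75, 2.29 and 1.72 of replicates 1 to 4.

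Other genes with the smallest p in this direction had smaller changes. *Igtp*, an interferon-inducible GTPase, rose by 1.13 ± 0.29 in astrocytes with a microglial response of -0.2 ± 0.29. *Mapk14*, the stress kinase p38 alpha, fell in microglia by 1.07 on the log2 scale (mean -1.07 ± 0.42) and had a response of 0.48 ± 0.44 in astrocytes. *Rnf122*, a ubiquitin ligase gene, had responses of 0.58 ± 0.33 and -1.65 ± 0.76. *Pik3ip1*, an inhibitor of PI3 kinase, fell in both cell types, by 0.87 on the log2 scale in astrocytes (mean -0.87 ± 0.48) and by 2.98 in microglia (mean -2.98 ± 0.75). Its level fell from a median of 1176 to 163 normalized counts in microglia and from 4144 to 2382 in astrocytes, and the difference of 2.11 (SE 0.33) had an adjusted p of 0.0114 and 0.0153 with the block.

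**Figure D2:**
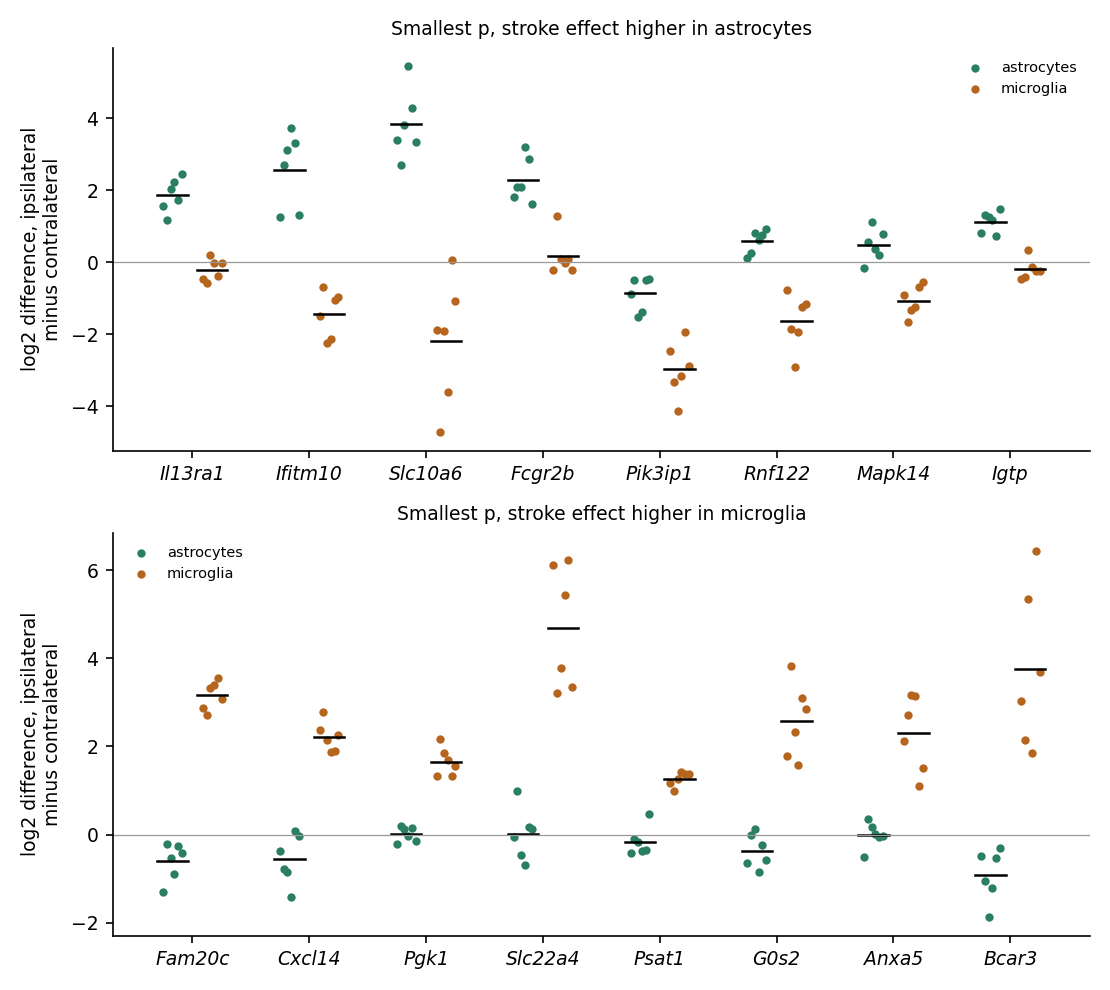
Log2 difference between hemispheres (y axis) in each of 6 pools (points) with its mean (black line), in astrocytes (green) and microglia (brown), for the 8 genes with the smallest p in each direction among those without overlap. *Fam20c* differences were -1.31 to -0.21 in astrocytes and 2.71 to 3.56 in microglia, and *Pik3ip1* fell in both cell types.

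Several genes that were called in microglia and not in astrocytes had a high level in astrocytes in both hemispheres. *Fam20c* (ENSMUSG00000025854, chromosome 5, 138754514 to 138810077, plus strand) encodes the kinase that phosphorylates secreted proteins, osteopontin among them. In microglia it was at 75 to 216 normalized counts contralaterally (median 138.5) and at 672 to 2184 ipsilaterally (median 1214). In astrocytes it was at 807 to 2181 (median 1276) and 449 to 1574 (median 865), and all 6 pools were lower ipsilaterally. The microglial response of 3.16 ± 0.33 was 3.08 in replicates 1 to 4 and 3.32 in 5 and 6, and the astrocyte response was -0.6 ± 0.42 (adjusted p = 0.0895). The difference of -3.76 (SE 0.24, adjusted p = 2.3e-06, with the block 0.00042) had the smallest p of the genes named here.

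*Cxcl14* (ENSMUSG00000021508, chromosome 13, 56288643 to 56296551, minus strand), a chemokine, was at 9 to 57 normalized counts in contralateral microglia (median 26) and 47 to 256 in ipsilateral microglia (median 160.5), a response of 2.22 ± 0.33. In astrocytes it was at 2555 to 4415 (median 3612) and 1449 to 3695 (median 2285), a response of -0.56 ± 0.57. *Slc22a4*, a carnitine and ergothioneine transporter, was at 0 to 17 normalized counts in contralateral microglia and 74 to 522 in ipsilateral microglia, against 1027 to 2471 and 635 to 2791 in astrocytes. *Bcar3*, an adaptor of integrin signalling, was at 0 to 56 and 86 to 246 in microglia and at 842 to 1689 and 262 to 1205 in astrocytes. Several contralateral microglial values of *Slc22a4* and *Bcar3* were at or near 0, so that their fitted responses of 4.69 ± 1.39 and 3.75 ± 1.82 depend on the pseudocount. The same 3 genes are abundant in astrocytes, and the 10 summed astrocyte markers in microglia were at 3306 to 6605 normalized counts contralaterally and 1591 to 5526 ipsilaterally. Without *Slc1a3*, which itself fell in microglia, the sums were 429 to 3665 contralaterally and 469 to 4596 ipsilaterally and were higher ipsilaterally in 2 of 6 pools. The part of astrocyte RNA in the microglial values was not tested.

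*Psat1*, an enzyme of serine synthesis, rose by 1.26 ± 0.16 in microglia, from a median of 1528 to 3549 normalized counts, and had a response of -0.16 ± 0.33 in astrocytes, where its medians were 9067 and 7429. *G0s2*, an inhibitor of triglyceride breakdown, had responses of -0.37 ± 0.38 and 2.57 ± 0.84. *Anxa5*, which binds phosphatidylserine, had medians of 938.5 and 6588 in microglia and of 3888 and 3909 in astrocytes. The rise of *Anxa5* in microglia was 2.79 in replicates 1 to 4 and 1.31 in replicates 5 and 6. The differences of *Slc22a4*, *Psat1*, *G0s2*, *Anxa5* and *Bcar3* all kept their calls with the block, with adjusted p values of 0.0153, 0.0225, 0.0209, 0.0153 and 0.0217.

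**Figure D3:**
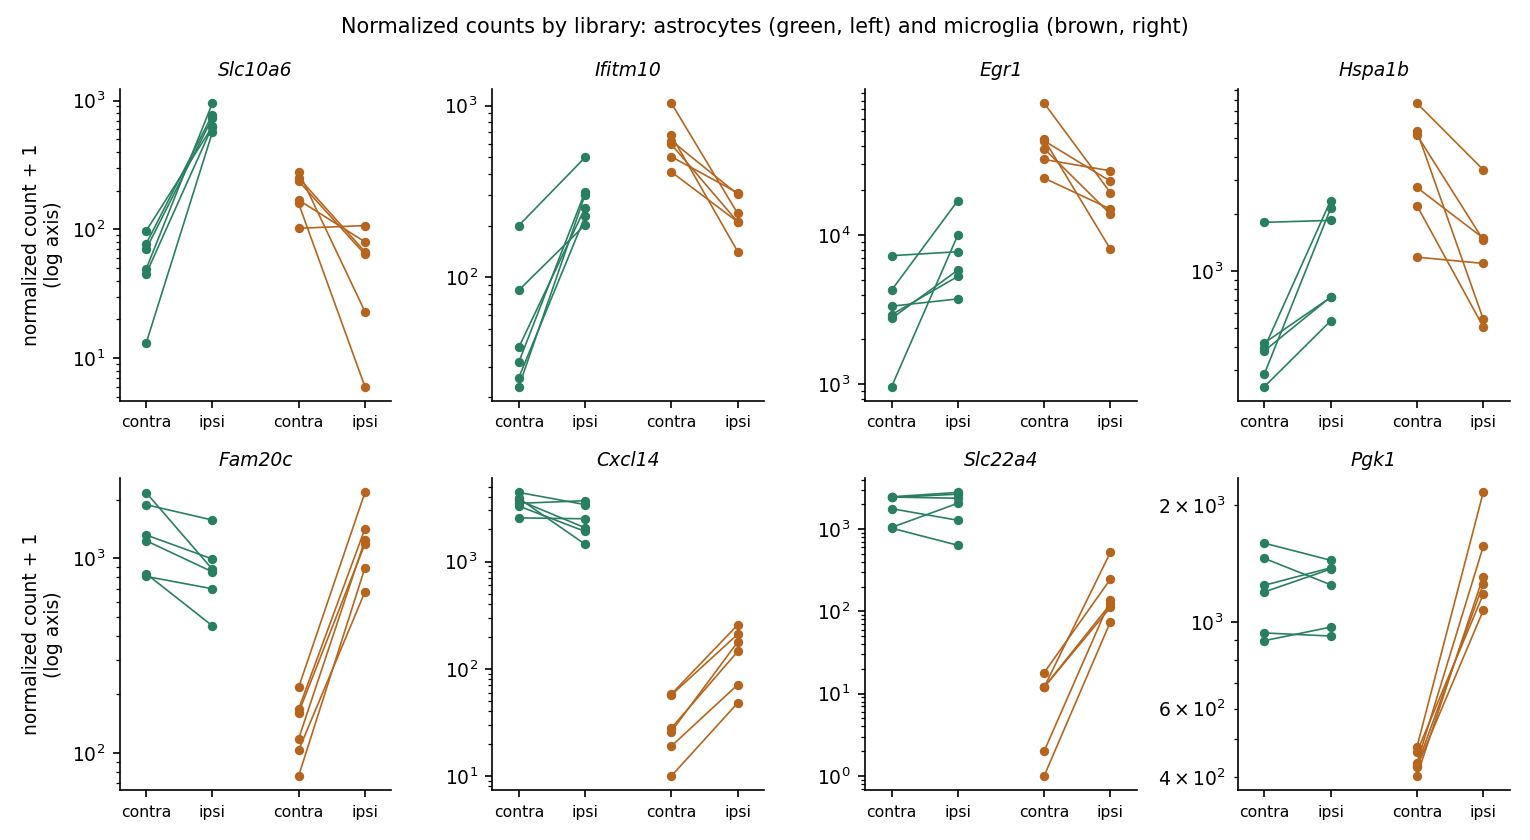
Normalized count + 1 (y axis, log scale) in each library of 8 genes, with lines joining the contralateral and ipsilateral library of a pool, in astrocytes (green) and microglia (brown). The upper row holds genes more positive in astrocytes and the lower row genes more positive in microglia, such as *Pgk1*, at 402 to 477 contralaterally and 1070 to 2150 ipsilaterally in microglia.

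Enzymes of glycolysis rose in microglia and were close to level in astrocytes. Of 23 genes of the hypoxia and glycolysis list, 6 were called different, all more positive in microglia, and 4 of these with the block. The 6 were *Pgk1*, *Gapdh*, *Tpi1*, *Pkm*, *Aldoa* and *Eno1*, successive or neighbouring enzymes of the pathway, of which *Pkm*, *Aldoa* and *Eno1* were chosen after their values were seen. *Pgk1* (ENSMUSG00000062070, chromosome X, 106187100 to 106203699, plus strand), whose promoter is shown above with 2 hypoxia cores, had medians of 430.5 and 1278 normalized counts in microglia and of 1218 and 1306 in astrocytes. Its microglial response was 1.66 ± 0.32 and its astrocyte response 0.01 ± 0.17, a difference of -1.65 (SE 0.19, adjusted p = 0.00135, with the block 0.0153). *Gapdh* was at 5537 to 7243 normalized counts in contralateral and 14061 to 18094 in ipsilateral microglia, and at 8100 to 19442 and 8193 to 13458 in astrocytes. *Pkm* was at 4338 to 5127 and 9035 to 29974 in microglia and at 5388 to 8565 and 5603 to 9708 in astrocytes.

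The remaining responses were 1.24 ± 0.31 in microglia and -0.13 ± 0.35 in astrocytes for *Tpi1*, 1.16 ± 0.14 and 0.01 ± 0.34 for *Aldoa*, and 0.95 ± 0.09 and -0.22 ± 0.4 for *Eno1*. With the block, *Aldoa* and *Eno1* lost their calls (adjusted p = 0.0587 for both). The list did not move as a whole, since its median response was 0.01 in astrocytes and 0.39 in microglia and 8 of 23 differences were above 0. Members outside the 6 enzymes included *Ddit4*, a stress-induced inhibitor of mTORC1, which fell in microglia (mean -2.52 ± 1.19), and *Adm*, the vasodilator adrenomedullin, which rose in astrocytes by 1.61 ± 0.9. Neither was called different (adjusted p = 0.104 and 0.356).

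Immediate early genes differed in the opposite direction. The tissue of both hemispheres went through warm enzyme digestion before sorting. The part of that step in the levels of these genes and of the heat shock genes below was not tested. Among the 20 tested genes of the AP-1 and immediate early list, the difference was above 0 in 20, by more than the typical 0.16, and 6 were called different, 2 with the block. In separate fits 8 fell and 1 rose in microglia, and 2 rose in astrocytes. The list had a median response of 0.71 in astrocytes and -0.86 in microglia, against -0.03 and -0.16 over all genes. *Egr1*, a zinc finger factor induced by growth signals and depolarization, was at 963 to 7298 normalized counts in contralateral astrocytes (median 3139) and 3743 to 17100 in ipsilateral astrocytes (median 6802). In microglia it fell from 24177 to 76957 (median 40593) to 8064 to 27058 (median 17132). Its level thus stayed higher in microglia, although the ranges of the 2 ipsilateral groups overlapped. The responses were 1.26 ± 1.25, with no call in astrocytes, and -1.29 ± 0.83, and the difference of 2.55 (SE 0.53) had an adjusted p of 0.0301 and of 0.0587 with the block.

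*Jun*, a subunit of AP-1, was at 37033 to 116961 normalized counts in contralateral microglia and 6818 to 29792 in ipsilateral microglia, without overlap, and at 3117 to 9614 and 4765 to 10409 in astrocytes. Its responses were -1.7 ± 1.01 in microglia and 0.58 ± 0.55 in astrocytes (adjusted p of the difference 0.0176, with the block 0.0391). *Myc*, a growth regulator, rose in astrocytes by 1.57 ± 0.88 and had a mean response of -0.75 ± 0.78 in microglia (adjusted p = 0.0176, with the block 0.0448). *Egr2*, whose promoter with a CArG box is shown above, had responses of 1.81 ± 1.56 and -1.18 ± 1.03, and *Egr3* of 1.98 ± 1.85 and -2.81 ± 1.88. Both fell in microglia in all 6 pools, and neither was called in astrocytes. With the block their adjusted p values were 0.078 and 0.0587. *Egr3* was scarce, at 0 to 18 and 3 to 87 normalized counts in astrocytes. *Klf6*, named after its value was seen, had responses of 0.64 ± 0.44 and -0.38 ± 0.31 (adjusted p = 0.0413, with the block 0.103). The fall in microglia was larger in replicates 1 to 4 than in 5 and 6 for *Jun* (means -2.22 and -0.67), *Egr1* (-1.7 and -0.47) and *Egr2* (-1.7 and -0.13).

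The 2 genes of inducible HSP70 had responses of opposite sign in the 2 cell types. *Hspa1b*, which encodes inducible HSP70, was at 245 to 1804 normalized counts in contralateral astrocytes (median 385.5) and 546 to 2350 in ipsilateral astrocytes (median 1288). In microglia it was at 1183 to 7653 (median 3981) and 508 to 3415 (median 1276). All 6 pools were higher ipsilaterally in astrocytes and lower in microglia, with mean responses of 1.4 ± 1.11 and -1.57 ± 1.1, although the astrocyte response alone was not called (adjusted p = 0.0671). The difference of 2.97 (SE 0.55) had an adjusted p of 0.0176. *Hspa1a*, its near-identical neighbour, had responses of 1.34 ± 1.01 and -1.22 ± 0.79 (adjusted p of the difference 0.0155). Reads that fit both copies were not counted by the authors, so that the 2 values rest only on reads that fit 1 copy. With the block the adjusted p of both was 0.0587. *Hspb1*, a small heat shock protein, rose in astrocytes by 2.13 ± 0.7 and had a positive response of 0.6 ± 0.5 in microglia (adjusted p = 0.0413, with the block 0.0815). In all, 4 of 21 genes of the heat shock and chaperone list were called different, none with the block, 6 rose and 3 fell in microglia, and the list median was 0.41 in astrocytes and 0.54 in microglia.

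**Figure D4:**
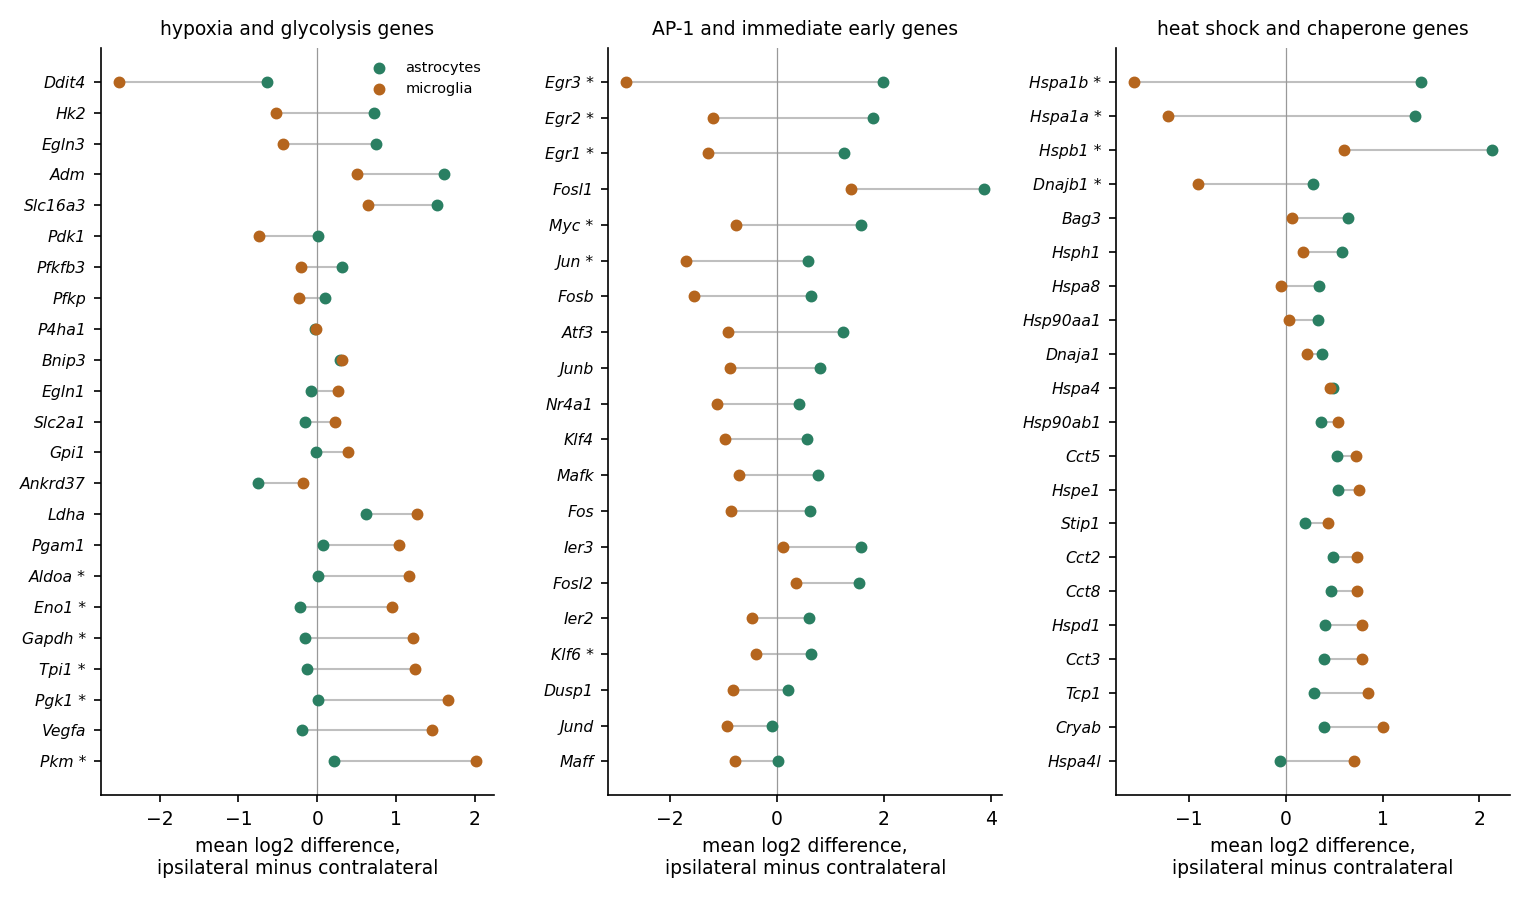
Mean log2 difference between hemispheres (x axis) of each tested member of 3 gene lists in astrocytes (green) and microglia (brown), joined by a line and ordered by the difference between them, with an asterisk on genes called different. Glycolytic enzymes lie at the bottom with higher microglial responses, whereas all 20 immediate early genes lie higher in astrocytes.

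In 32 of the 179 genes the 2 mean responses were of opposite sign and each was at least 0.585 in size, 28 with a rise in astrocytes and 4 with a fall. The microglial response was called in 19 of the 32, the astrocyte response in 10 and both in 2, and 9 of the 32 were called with the block. *Clcf1*, a cytokine of the IL-6 family, was at 0 to 209 normalized counts in contralateral and 94 to 259 in ipsilateral astrocytes, and at 333 to 1030 and 56 to 384 in microglia. Its response was 3.45 ± 2.7 in astrocytes, with 6 of 6 pools up and no call, and -1.8 ± 1.26 in microglia, and the difference (adjusted p = 0.0259) had a p of 0.0532 with the block. *Tgfa*, a ligand of the EGF receptor, rose by 0.96 ± 0.38 in astrocytes, from a median of 987 to 1584 normalized counts, and had a response of -0.81 ± 0.74 in microglia (adjusted p = 0.0155, with the block 0.0448). *Trf*, transferrin, had medians of 2050 and 4880 in astrocytes and 1778 and 1140 in microglia. *Trf* is abundant in oligodendrocytes, whose summed markers in astrocyte libraries were higher ipsilaterally in 3 of 6 pools, namely 3, 4 and 6. The astrocyte response of *Trf* was 2.76, 1.7 and 1.63 in those 3 pools. It was -0.25, 1.53 and 0.75 in pools 1, 2 and 5, where the marker sums were lower ipsilaterally. Ipsilateral *Trf* was highest in pools 3 and 4, at 11978 and 11004 normalized counts, where these marker sums were also highest, at 293379 and 432741. The part of oligodendrocyte RNA in the response of *Trf* was not tested. *Tgfa* and *Trf* were named after their values were seen.

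Antioxidant genes were split between the cell types. Of 19 genes of the Nrf2, metallothionein and iron list, 12 rose in microglia and 3 in astrocytes, 4 were called different and all 4 of these with the block. *Hmox1*, the heme-degrading enzyme, rose in both cell types, more in astrocytes, where it went from a median of 422.5 to 4219 normalized counts, than in microglia, where it went from 1974 to 6186. The responses were 3.49 ± 0.71 and 1.78 ± 0.7, a difference of 1.71 (SE 0.36, adjusted p = 0.0317, with the block 0.0436). *Prdx1*, a peroxidase, had medians of 8208 and 9230 in astrocytes and 3994 and 15752 in microglia (adjusted p = 0.00846). *Slc7a11*, the cystine importer, rose by 3.42 ± 1.24 in microglia, from a median of 130.5 to 1679, with a response of 0.59 ± 0.34 in astrocytes (adjusted p = 0.0124). *Gclm*, a subunit of the enzyme that starts glutathione synthesis, had responses of 1.86 ± 0.81 in microglia and 0.17 ± 0.49 in astrocytes (adjusted p = 0.0301). *Srxn1*, which repairs peroxiredoxins, rose by 3.17 ± 0.98 and 2.97 ± 0.82, and the 95% interval of its difference was -0.78 to 1.18.

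Of 32 tested genes of the reactive astrocyte list, 17 rose and 0 fell in astrocytes, 10 rose and 3 fell in microglia, and 5 were called different, of which 1, *Slc10a6*, kept the call with the block. The others were *Clcf1*, *Hspb1*, *Tgm1* and *Ggta1*, of which *Ggta1* had a response of 0.17 ± 0.16 in astrocytes and fell in microglia (mean -1.08 ± 0.44, adjusted p of the difference 0.0193, with the block 0.0632). *Gfap* had responses of 1.43 and -0.49 (adjusted p of the difference 0.29). *Tgm1*, a transglutaminase named after its value was seen, had a response of 4.05 ± 2.07 in astrocytes and 0.62 ± 0.86 in microglia (adjusted p = 0.0488, with the block 0.0768). In contralateral astrocytes of replicate 6 it was already at 3086 normalized counts, against 20 to 79 in the other 5. Among contralateral astrocytes, that library also held the highest values of *Lgals3* (5755), *Hspb1* (1628), *Cd44* (1580), *Timp1* (245) and *Clcf1* (209). Among IL-6 family and STAT3 genes, 2 of 16 were called different, *Clcf1* and the receptor chain *Il6ra*, which fell in microglia (mean -1.7 ± 0.64) with a response of 0.33 ± 0.81 in astrocytes (adjusted p of the difference 0.0202, with the block 0.0637). *Il6* itself had responses of 3.7 ± 2.39 and 1.0 ± 1.03, and its difference of 2.7 was not called (adjusted p = 0.154).

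Homeostatic genes of microglia fell in microglia, with 13 of 18 called down, against 6.74% of all genes. In astrocytes 0 were called down, against 0.409% of all genes. At an unadjusted limma p under 0.05 there were 5 in astrocytes, for which no share over all genes is given. Examples were *P2ry12* (mean response -1.76) and *Tmem119* (-1.6). The only 1 of the 18 called different was *Sall1*, a transcription factor of microglial identity, at 2334 to 3113 normalized counts in contralateral and 556 to 1678 in ipsilateral microglia, and at 385 to 635 and 392 to 677 in astrocytes (adjusted p = 0.0332, with the block 0.0541). Astrocyte homeostasis genes held 1 call of 20, *Slc1a3*, a glutamate transporter. It was at 44740 to 78661 and 24988 to 75867 in astrocytes and fell in microglia from 2500 to 3285 down to 537 to 1347 normalized counts (adjusted p = 0.0477, with the block 0.0436). Of the 10 astrocyte markers, *Slc1a3* was the only 1 called in microglia.

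Proteasome subunits rose together in microglia. Of 31 subunits, 29 rose in microglia, against 4.98% of all genes, and 0 in astrocytes, against 1.48%. Their median responses were 0.92 and 0.14. At an unadjusted limma p under 0.05 there were 6 in astrocytes, for which no share over all genes is given. The difference was below 0 in 31 of 31, beside a median of 0.16 over all genes, but was called for *Psmc4* alone. *Psmc4*, an ATPase of the regulatory particle, was at 1286 to 1677 and 2126 to 4358 normalized counts in microglia. In astrocytes it was at 1560 to 2181 and 1588 to 2062 (adjusted p of the difference 0.0193, with the block 0.0587). *Psmb6*, a catalytic subunit, had responses of 1.32 ± 0.73 and 0.07 ± 0.44 (adjusted p of the difference 0.0679).

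Other lists held 0 to 2 calls. In the disease-associated microglia and lipid list, *Fabp5* and *Lgals3* were called more positive in microglia, both also with the block. *Fabp5*, a fatty acid binding protein, rose in microglia from a median of 55.5 to 311.5 normalized counts and had medians of 2153 and 2446 in astrocytes. *Lgals3*, galectin-3, rose by 5.13 ± 1.24 in microglia with a response of 1.98 ± 1.65 in astrocytes (adjusted p = 0.043). In contralateral astrocytes *Lgals3* was at 5755 normalized counts in replicate 6, against 89 to 681 in the others. Its astrocyte response was -0.33 in that pool and above 0 in the others. The call of *Lgals3* was lost whichever replicate was left out. *Rsad2* of the interferon list had responses of 0.72 ± 0.36 in astrocytes and 3.15 ± 1.29 in microglia (adjusted p = 0.0332, with the block 0.0642), and *Ccnd2* of the cell cycle list had 0.02 ± 0.39 and 1.27 ± 0.55 (adjusted p = 0.0461, with the block 0.0768). *Adamts1*, a matrix protease, was called in the direction of astrocytes (1.56 ± 0.5 against 0.0 ± 0.85, adjusted p = 0.0471, with the block 0.0453). Cholesterol synthesis genes (20 tested) and unfolded protein response genes (19 tested) held 0 calls in limma with or without the block. At an unadjusted p under 0.05 there were 2 differences in the first list and 6 in the second, beside 2254 of 12238 over all genes.

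**Figure D5:**
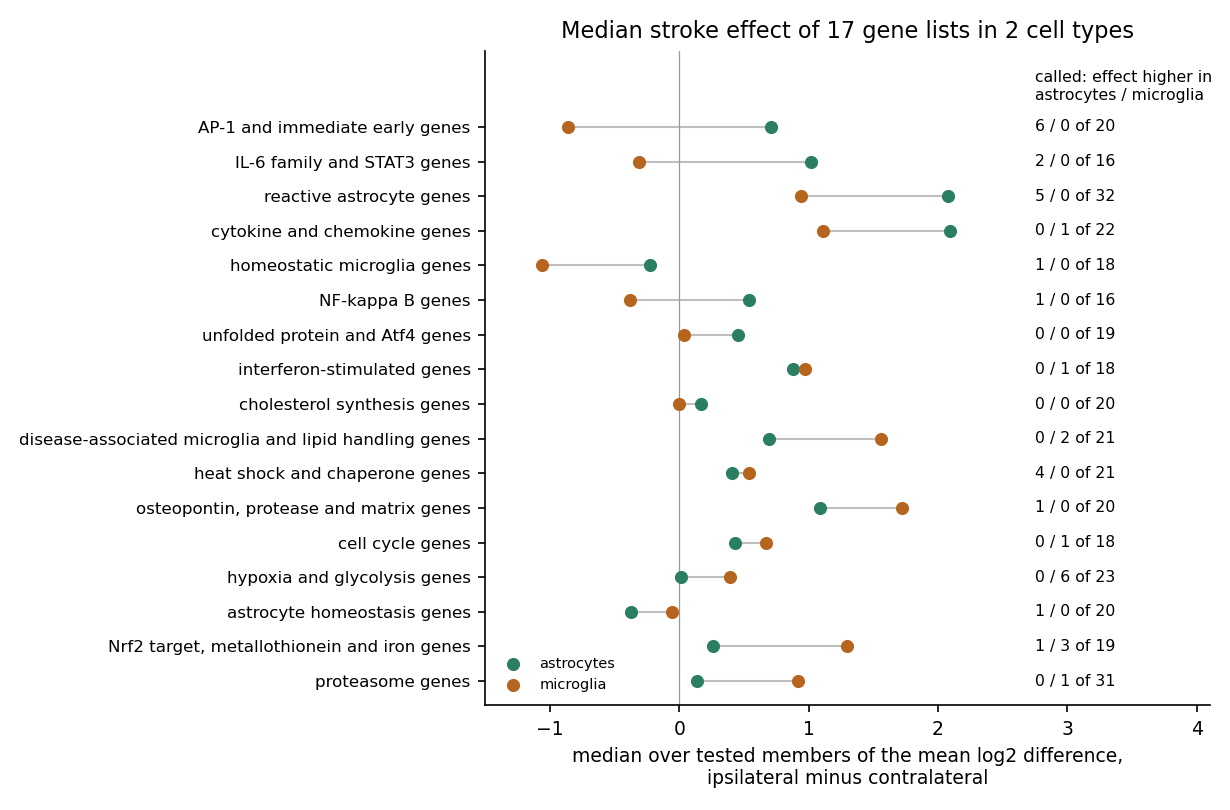
Median over the tested members of 17 gene lists of the mean log2 difference between hemispheres (x axis) in astrocytes (green) and microglia (brown), with the number of members called different in each direction at the right. Immediate early genes have medians of 0.71 and -0.86, and proteasome genes of 0.14 and 0.92.

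Some of the largest responses were not called different. In all, 80 genes were called in the same direction in both separate fits, 73 up and 7 down, and 4 of these 80 were called different. They were *Hmox1* and *Tubb6*, which rose more in astrocytes, and *Pik3ip1* and *Adcy8*, which fell more in microglia. *Tubb6* and *Adcy8*, named after their values were seen, lost the call with the block (adjusted p = 0.0709 and 0.0504). The 82 genes called in both fits were 35.5% of the astrocyte calls and 5.72% of the microglial calls. Across all 12238 genes the 2 mean responses had a Pearson r of 0.37 and a Spearman rho of 0.3, which describes these genes and is no test.

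The largest shared rises were those of *Mmp12*, *Il1rn*, *Adam8*, *Lilr4b*, *Cxcl3* and *Cd72*. *Mmp12*, a macrophage elastase, was at 6 to 60 normalized counts in contralateral microglia and 2213 to 14533 in ipsilateral microglia. It was at 0 in all 6 contralateral astrocyte libraries and at 0 to 596 in the ipsilateral ones. *Il1rn*, the antagonist of the interleukin 1 receptor, was at 73 to 205 and 2190 to 11995 in microglia and at 0 to 24 and 30 to 1577 in astrocytes, and its difference of 0.39 had a 95% interval of -1.56 to 2.34. For *Adam8*, a membrane protease, the difference was 0.12 with an interval of -1.63 to 1.87. These intervals do not show that the responses were alike.

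In ipsilateral astrocytes, these genes were at a fraction of their microglial level, which was lower in replicates 5 and 6, as were the microglial markers. *Mmp12* was at 3.23% of its microglial level in replicates 1 to 4 and 0.234% in 5 and 6, *Adam8* at 8.62% and 0.673%, *Il1rn* at 9.33% and 1.57%, *Lilr4b* at 5.28% and 0.523%, *Cd72* at 5.97% and 0.378%, and *Cxcl3* at 29% and 7.69%, beside 5.62% and 0.467% for the microglial markers. *Spp1*, which encodes osteopontin, was at 6.1% and 1.73%. Its astrocyte response was 4.88 in replicates 1 to 4 and 0.37 in replicates 5 and 6, against 6.41 and 4.23 in microglia, and over all 6 pools the difference of -2.31 was not called (95% interval -4.46 to -0.16, adjusted p = 0.241). *Lpl*, lipoprotein lipase, was at 5.8% and 0.469%, with astrocyte responses of 6.77 and 0.25. The part of microglial RNA in the astrocyte values of these genes was not tested.

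Monocyte and macrophage markers were also higher on the ipsilateral side, with summed normalized counts of 75 to 1092 and 375 to 2655 in astrocytes and of 291 to 1519 and 1282 to 4434 in microglia. Of 8 such markers tested, *Lyve1*, a hyaluronan receptor of perivascular macrophages named after its value was seen, was called more positive in astrocytes, at 0 to 38 and 38 to 633 normalized counts there (adjusted p = 0.0345, with the block 0.0768).

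For *Cd44*, *Timp1* and *Lcn2* the astrocyte levels in the ipsilateral hemisphere were of the order of the microglial ones or above. *Cd44*, a receptor for hyaluronan and osteopontin, was at 879 to 4336 normalized counts in ipsilateral astrocytes and 631 to 2342 in ipsilateral microglia. Its responses were 2.85 ± 0.77 and 4.02 ± 1.22 (difference -1.17, adjusted p = 0.246). *Timp1*, an inhibitor of matrix proteases, was at 270 to 809 in ipsilateral astrocytes and 28 to 210 in ipsilateral microglia, with responses of 3.08 ± 0.87 and 3.37 ± 1.04. *Lcn2*, an iron-binding protein of the acute phase, was at 1931 to 4763 and 244 to 1856, with responses of 3.89 ± 1.16 and 3.72 ± 1.21. In replicates 5 and 6 the astrocyte responses were 2.2, 2.81 and 3.49. *Ccl5*, a chemokine, had responses of 3.16 ± 1.99 and 2.55 ± 1.18 and was not called different either (adjusted p = 0.762).

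The number of calls varied with the pool that was left out. Without replicate 4, 10 of the 179 calls were left, and without replicate 2 there were 194 calls, 137 of them shared. All 179 genes kept the sign of their difference in replicates 1 to 4 alone and in replicates 5 and 6 alone, where the difference was at a median of 1.12 and 0.75 of its value over 6 pools. These subsets are part of the data that chose the genes. In 8 genes the call held with each replicate left out and under each other processing choice except the use of replicates 1 to 4 or 5 and 6 alone, namely *Slc10a6* and *Ifitm10* in the direction of astrocytes and *Fam20c*, *Cxcl14*, *Slc22a4*, *Bcar3*, *G0s2* and *Pgk1* in the direction of microglia.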

How the data were processed

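RNA of sorted cells was amplified with SMART-Seq HT from about 250 pg. Per the labels and methods, the authors trimmed reads with Trimmomatic 0.38, aligned them with STAR 2.6.1d to GRCm38, counted uniquely mapped reads with featureCounts 1.6.3 and normalized the counts with DESeq2 1.18.1. The values the authors deposited are normalized counts rounded to whole numbers, a score here and not raw counts, so no count model was fitted. Titles of the ipsilateral pericyte and microglia samples conflict with the column names, and the column names were used, and microglial markers were high in those columns.

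For each gene and replicate number, log2(normalized count + 1) of the contralateral library was subtracted from that of the ipsilateral one, and the 6 astrocyte and 6 microglial differences were compared in limma 3.58.1 (R 4.3.3, eBayes with trend, two-sided, Benjamini-Hochberg). This scale understates changes of low genes. Each cell type was also tested against 0. Genes needed a mean of at least 10 in both cell types. In simulated data the share of unchanged genes among the calls was above the nominal one. No changed gene was called with the wrong sign there. The planted changes were larger than most differences called here, so that a wrong sign was unlikely from the start. The simulated pool effects were not shared between the cell types. The reads behind a library were estimated from the spacing of its low values, searching from 0.6 normalized counts per read, since a spacing near 1 cannot be told from its half-value. They are approximate and cover counting error only. Exact permutation tests of 6 against 6 differences cannot give less than p = 0.00216.

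Same-numbered libraries were taken to come from the same pools, which pairs the cell types. The cell types were sorted from the same tissue, but the sample labels give only a replicate number. The 2 responses of a pool correlated across genes, as deviations from their means, at -0.02 to 0.18 (mean 0.07). For different pools the range was -0.16 to 0.1 (mean -0.01), so that the 2 ranges overlapped. The replicate block was therefore fitted as an alternative. Named genes were the 8 with the smallest p in each direction and the 8 largest opposite responses, all without overlap, the 6 largest shared rises, 10 genes of the osteopontin and cytokine groups, and from each list up to 3 called and 2 uncalled members. Genes outside this rule are marked, except the cell type markers *Gfap*, *P2ry12* and *Tmem119*. Gene members and lists were chosen with earlier results of these data known. Summaries used pandas 2.3.3, scipy 1.17.1, numpy 2.4.6 and matplotlib 3.10.9 under Python 3.11.15. Coordinates of genes are those of the deposited table and promoters those of RefSeq.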

Additional observations from a re-analysis of the deposited data

Results flagged for a closer look

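The responses of 179 genes differed between astrocytes and microglia by a test of the difference itself. Among those named for opposite responses, the astrocyte minus microglial difference in log2 response was 6.02 for *Slc10a6*, 5.25 for *Clcf1*, 4.78 for *Egr3*, 4.0 for *Ifitm10*, 2.99 for *Egr2* and 2.97 for *Hspa1b*. It was -4.67 for *Bcar3* and -3.76 for *Fam20c*. With the pools as a block, 60 genes were called, and *Clcf1*, *Egr3*, *Egr2* and *Hspa1b* lost their calls (limma adjusted p = 0.0532, 0.0587, 0.078 and 0.0587).

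A single pool was flagged as far from the other 5 for *Fcgr2b* and *Psat1*. Other named genes that were not flagged also held a stray pool, such as *Icam1* in astrocytes (3.5 in replicate 3, 1.06 to 1.9 in the others). The microglial difference of *Fcgr2b* was 1.28 in replicate 2, where the ipsilateral library held 12210 normalized counts, against -0.22 to 0.1 in the others. Its call was lost without replicate 4, not 2. The astrocyte difference of *Psat1* was 0.46 in replicate 6, where the other 5 were below 0. Chance flags about 1 in 20 groups of this size.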

How the results depend on the processing

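Counts depended on how the pools entered the fit. Against 179 genes called different (112 more positive in astrocytes, 67 in microglia, 32 opposite), the replicate block over paired cell types gave 60 (31, 29 and 10), the fit of 24 libraries with no replicate block 56 (27, 29 and 11) and with the replicate block as a random effect 89 (46, 43 and 13). Without a trend in the prior variance there were 92 (50, 42 and 15), and with a pseudocount of 10 there were 279 (183, 96 and 56). A pseudocount of 0.1 gave 20 opposite genes. Replicates 1 to 4 alone gave 9 (2, 7 and 4), and replicates 5 and 6 alone gave 3 (1, 2 and 0), the last with a prior that carries most of the spread. With 1 replicate left out, the counts ranged from 10 to 194 (3 to 117 more positive in astrocytes, 7 to 77 in microglia, 3 to 37 opposite), lowest without replicate 4. The 231 astrocyte calls became 113 with no filter on low values, 46 with no replicate block, 44 with no trend, 70 in replicates 1 to 4, 66 in replicates 5 and 6, and 56 to 193 with 1 replicate left out. The 1434 microglial calls became 629 with no trend, 507 in replicates 1 to 4, 355 in replicates 5 and 6, and 498 to 1987 with 1 replicate left out. The cause of these shifts was not tested, except that the subsets hold fewer pools. No named gene that was called changed sign under any of these choices, which was unlikely from the start, since the same values chose the genes. Of 111 named genes, 71 were called, 33 of them also with the block and 10 with each replicate left out. Without replicates 1 to 6 in turn, 40, 17, 50, 61, 44 and 35 of the 71 calls were lost.

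The depth of a library, from 4900000 reads upward, limits genes with few counts, for which 0 to 3 reads cannot be told from absence. Rises of genes near 0 in a hemisphere depend on the pseudocount. Astrocyte libraries of replicates 5 and 6 held fewer microglial marker counts than those of replicates 1 to 4.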
